A study of Mus musculus with 4 samples.

Results

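Heat shock and endoplasmic reticulum (ER) chaperones are 41 genes, chosen by name, that encode proteins which fold other proteins or control such proteins. The choice was made with earlier results of these data known. Of the 41 genes, 40 had spots on the array and all 40 were tested, among 18624 genes tested in all. Hspa1b had no probe of its own, and 2 of the 4 Hspa1a probes list its transcript as well. By the compartment in which their proteins work, 21 of the tested genes were cytosolic, 3 mitochondrial and 14 of the ER, and Hsf1 and Xbp1 encode transcription factors. The array names Hspa9 and Hsph1 by earlier symbols.

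Two-colour Agilent arrays compared CD8+ T cells made in culture with CD8+ cells of the mouse thymus. The in vitro-derived cells grew for 35 days from sorted Lin-Sca1+CD117+ bone marrow cells of C57Bl/6 mice aged 6 to 8 weeks, on OP9-DL1 stroma, a feeder line that displays a Notch ligand, with Flt3 ligand and IL-7. The thymic cells came from C57Bl/6 mice aged 4 to 5 weeks, and both kinds were sorted as CD8+ with high T cell receptor beta and left untreated. Each kind was represented by 2 RNA preps, and the labels name no separate animals, so that the p-values reflect only how far these preps differ, which may be technical. Each in vitro prep was hybridised against each thymic prep: array 1 held in vitro prep 1 and thymic prep 1, array 2 in vitro prep 2 and thymic prep 1, array 3 in vitro prep 1 and thymic prep 2, and array 4 in vitro prep 2 and thymic prep 2. In vitro-derived RNA always carried Cy5 and thymic RNA Cy3, and effects of dye, donor age, tissue of origin and culture cannot be told apart.

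Among 43379 spots without the controls, 66.5% to 70.9% exceeded background clearly in the in vitro-derived channel and 63.7% to 65.6% in the thymic channel. Each of the 40 tested chaperone genes had a probe well above background in both channels on all 4 arrays. The labelled cell type was checked against 11 T cell and CD8 genes, all of which were measured. Their summed linear intensity was 278817 and 255501 in the in vitro preps, against 327849 and 327707 in the thymic preps. Cd8a differed by -0.77 ± 0.10 (log2, SE, with loess normalization) and Cd4 by 0.40 ± 0.08, and with median centring of the arrays they lay at 0.29 and 0.44. With 2 preps of each kind the smallest p of an exact permutation test is 0.333, so calls rest on the variance that limma shares over genes.

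Chaperones of the HSP70 family hold unfolded stretches of other proteins and are driven by J proteins and released by exchange factors, HSP90 acts on kinases and receptors near their final fold, and the chaperonins TRiC (cytosol) and HSP60 (mitochondria) enclose a client in a barrel. Cytosolic stress switches on many of these genes through the factor HSF1, which binds inverted repeats of GAA, the heat shock element. Unfolded protein in the ER acts through IRE1 and XBP1, through ATF6 and through PERK, and ATF6 with NF-Y binds the ER stress element, in which CCAAT and CCACG lie 9 bases apart. In T cells the lectin chaperones calreticulin and calnexin and the isomerases of the ER assist glycoproteins such as the T cell receptor chains, and calreticulin and PDIA3 belong to the complex that loads peptide on MHC class I.

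The promoters of ER genes and of cytosolic and mitochondrial genes held different motifs, apart from the short CCACG given below. RefSeq promoters of the GRCm38.p6 assembly, which run from 250 bases before to 50 bases after a gene's start, were given for 34 of the 41 genes. The ER stress element, searched on both strands, lay in 7 of 13 ER genes and in 0 of 18 cytosolic genes, against 0.14% of 27025 genes in the table. The 7 matches are shown because 7 of the 13 ER genes share this element, with the fixed letters in capitals and 20 bases on each side.
Hspa5, chr2:34772005-34772063, plus strand: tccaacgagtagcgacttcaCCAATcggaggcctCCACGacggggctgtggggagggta
Hsp90b1, chr10:86705618-86705676, minus strand: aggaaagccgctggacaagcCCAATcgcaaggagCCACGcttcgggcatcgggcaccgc
Calr, chr8:84847055-84847113, minus strand: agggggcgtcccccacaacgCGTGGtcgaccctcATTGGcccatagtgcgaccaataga
Canx, chr11:50325780-50325838, minus strand: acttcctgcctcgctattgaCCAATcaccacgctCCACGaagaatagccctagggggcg
Pdia6, chr12:17266471-17266529, plus strand: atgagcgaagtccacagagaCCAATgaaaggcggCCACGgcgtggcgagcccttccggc
Dnajc3, chr14:118937807-118937865, plus strand: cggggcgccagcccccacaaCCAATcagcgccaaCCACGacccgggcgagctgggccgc
Creld2, chr15:88819500-88819558, plus strand: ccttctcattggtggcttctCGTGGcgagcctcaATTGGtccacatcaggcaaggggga

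Calr and Creld2 carry the element in the opposite orientation to the gene, and the Hsp90b1 promoter holds 2 copies, of which the first is shown. The related ER stress element II was found in Dnajb11 and Herpud1 and in 0.04% of all genes. TGACGTGG, a form of the unfolded protein response element, was found in 0 of the 34 genes and in 0.71% of all genes. CCACG alone lay in 12 of 13 ER, 10 of 18 cytosolic and 2 of 2 mitochondrial genes, against 35.48% of all genes. A match is a description of letters in this window and not a site of binding.

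The heat shock element in its short form, GAANNTTC, lay in 8 of 18 cytosolic and 2 of 2 mitochondrial genes and in 0 of 13 ER genes, against 9.04% of all genes. A longer form has another GAA 2 bases after the short form or, read on the opposite strand, a TTC 2 bases before it. This longer form lay in Hsph1 (TTC before), Dnajb6, Hspd1 and Hspe1, against 0.66% of all genes. The matches shown are those of genes called higher or lower in in vitro-derived cells, with GAA and TTC in capitals and up to 26 bases on each side.
Hsph1, chr5:149636266-149636321, minus strand: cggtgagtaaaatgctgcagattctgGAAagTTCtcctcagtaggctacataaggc
Hspa1a, chr17:34972227-34972286, minus strand: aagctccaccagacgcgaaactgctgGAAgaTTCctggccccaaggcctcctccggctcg
Dnaja1, chr4:40722318-40722377, plus strand: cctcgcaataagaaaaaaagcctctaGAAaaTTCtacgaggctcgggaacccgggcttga
Bag3, chr7:128523599-128523632, plus strand: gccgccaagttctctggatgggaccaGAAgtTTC
Hspb1, chr5:135887776-135887835, plus strand: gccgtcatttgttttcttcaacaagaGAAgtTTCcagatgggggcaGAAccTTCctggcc
Dnajb6, chr5:29735826-29735885, plus strand: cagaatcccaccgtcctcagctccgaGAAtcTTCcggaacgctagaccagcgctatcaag
Hspe1, chr1:55088038-55088097, plus strand: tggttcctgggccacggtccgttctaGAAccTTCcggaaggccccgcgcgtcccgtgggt
Hspd1, chr1:55088038-55088097, minus strand: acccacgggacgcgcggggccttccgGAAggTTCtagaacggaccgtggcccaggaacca

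Hspd1 and Hspe1, the genes of mitochondrial HSP60 and its lid HSP10, are read in opposite directions and share 1 element, so their lines are the same window of chromosome 1 on both strands. The match in Hsph1 begins 20 bases and that in Bag3 42 bases after the start given by RefSeq, inside the transcribed part. Cct2, which was not called, and Hspa1b, which was not measured, hold a match as well.

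The first comparison set the chaperones of each compartment in in vitro-derived cells against those in thymic cells. ER chaperones were lower in in vitro-derived cells with loess normalization. With median centring, described further on, 0 of 14 were called lower and 7 higher. In that setting 12.0% of all genes tested were called lower and 58.7% higher. With loess, 10 of 14 were called lower (71.4%, against 25.0% of all genes tested), 1 was called higher and 3 were not called, with a median log2 ratio of -0.50. Cytosolic chaperones were called lower in 6 of 21 (28.6%) and higher in 3 of 21 (14.3%, against 26.6% of all genes), with a median of 0.12. The share called lower lies near that of all genes and is no result about the cytosolic genes. Of the 3 mitochondrial genes 2 were called lower and 0 higher by limma (0 higher at an unadjusted p under 0.05 too) with loess, with a median of -0.34, and all 3 were called higher with median centring. Over all 40 genes 24 were called, which is 60.0% against 51.6% of all genes. Each of the 24 had 1 sign on all 4 arrays, as had 10 of the 16 genes not called. The calls are drawn from the same 4 ratios, so the shared sign adds no support to them. Hsph1 and Bag3 alone differed at least 2-fold in this setting. With Agilent's processed signals and with the deposited ratios Hspa1a (-1.51) and Hspb1 (1.16) did so as well, and with median centring 8 genes did, Bag3 among them but not Hsph1. In bulk RNA, fewer cells of a type and less RNA per cell cannot be told apart.

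The gap between compartments was present on each array. The ER median lay below the cytosolic median by 0.54, 0.62, 0.57 and 0.63 log2 units on arrays 1 to 4, although the arrays share preps and are not 4 independent measurements. Against TRiC alone, the mean gap of the ER genes was -0.62, and the mitochondrial genes lay at -0.45 relative to the cytosolic ones. The median of all genes was 0.03, so the ER median lay below and the cytosolic median above it.

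**Figure D1:**
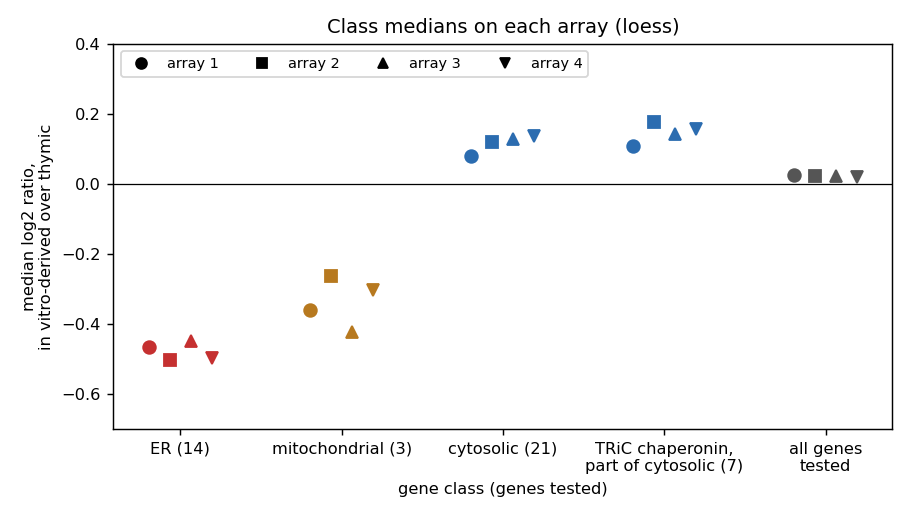
Median log2 ratio of in vitro-derived over thymic cells for each gene class (x axis, genes tested in brackets), with 1 point per array after loess normalization; with median centring the ER median over arrays turned to 0.33. ER genes lie below cytosolic genes on all 4 arrays, with mean class medians of -0.50 and 0.12, and all genes tested lie near 0.03.

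The gap between ER and cytosolic genes was similar under both ways of normalizing the arrays, but the direction of a class was not. Loess removes any trend of the log ratio with brightness, and 31 of the 40 chaperone genes were brighter than 75% of all genes tested. With median centring of each array in place of loess, the median of all genes moved by 0.31 to 0.34, and 83.1% of calls were higher in in vitro-derived cells, against 51.5% with loess. Under median centring 58.7% of all genes were called higher and 12.0% lower, and of the 40 chaperone genes 30 were called higher, 2 lower and 8 neither. The ER minus cytosolic gap was then -0.56, -0.71, -0.57 and -0.67 on the 4 arrays, with a mean of -0.63 against -0.59 with loess. Relative to the median of all genes under the same centring, the ER median lay at -0.01 (7 genes below and 7 above) and the cytosolic median at 0.60 (4 below and 17 above). The statement that the listed ER chaperones were lower relative to the listed cytosolic ones therefore holds in both settings. The statement that these ER chaperones were lower than genes at large holds with loess only.

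**Figure D2:**
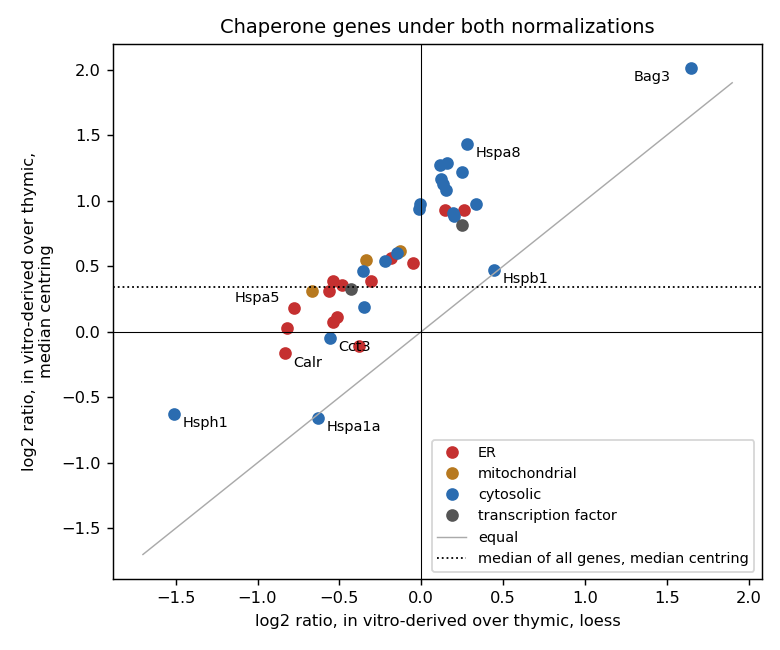
Log2 ratio of each chaperone gene with loess (x axis) and with median centring (y axis), coloured by compartment, with the line of equal values in grey. Bright genes lie far above the line, Hsph1 and Hspa1a stay below 0 on both axes (-0.63 and -0.66 with median centring), and Bag3 stays above 0 on both (1.65 and 2.01).

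Hsph1, the cytosolic HSP110 that releases nucleotide from HSP70, had the largest decrease of the chaperones with loess. Its log2 intensity was 13.09 and 12.49 in in vitro preps 1 and 2, against 14.28 and 14.32 in thymic preps 1 and 2. Both in vitro preps lay below both thymic preps, and in vitro prep 2 lay below prep 1. The gene was 2.85-fold lower in in vitro-derived cells, at -1.51 ± 0.20 on the log2 scale (limma adjusted p = 0.0026). Each SE given here is that of the limma fit to 2 preps of each kind, with variance shared over genes. Its ratios on the 2 arrays of in vitro prep 1 were -1.19 and -1.23, and on those of prep 2 were -1.83 and -1.80. Hsph1 had 1 probe, and it stayed called lower under all 19 alternatives, with median centring at -0.63.

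Bag3, an exchange factor that joins HSP70 to autophagy of damaged protein, rose 3.13-fold relative to thymic cells (1.65 ± 0.10 on the log2 scale, adjusted p = 2.4e-04). Its log2 intensity was 9.13 and 8.94 in the in vitro preps, against 7.38 and 7.39 in the thymic preps, with no overlap. The size rests on the probe: that with a RefSeq accession differed by 2.94 ± 0.12 and that from a cDNA clone by 0.36 ± 0.09. Both were called higher, and the gene stayed called under all 19 alternatives.

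Hspa1a, the stress-inducible HSP70, was dim. It had a log2 intensity of 6.47 and 6.61 in the in vitro preps, against 7.28 and 7.06 in the thymic preps. It was 1.55-fold lower (-0.63 ± 0.11, adjusted p = 0.0070), and its 3 tested probes differed by -0.37, -0.72 and -0.80. The probe at -0.37 lists Hspa1b as well, and transcripts of these 2 near-identical genes cannot be told apart here. The gene kept its sign under all alternatives, with -0.66 under median centring, but was not called without thymic prep 1, with marked spots kept or with the background model fitted on all spots (-0.50 in each). Its size depends on the background correction, since Agilent's processed signals and the deposited ratios both gave -1.51 (called lower).

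**Figure D3:**
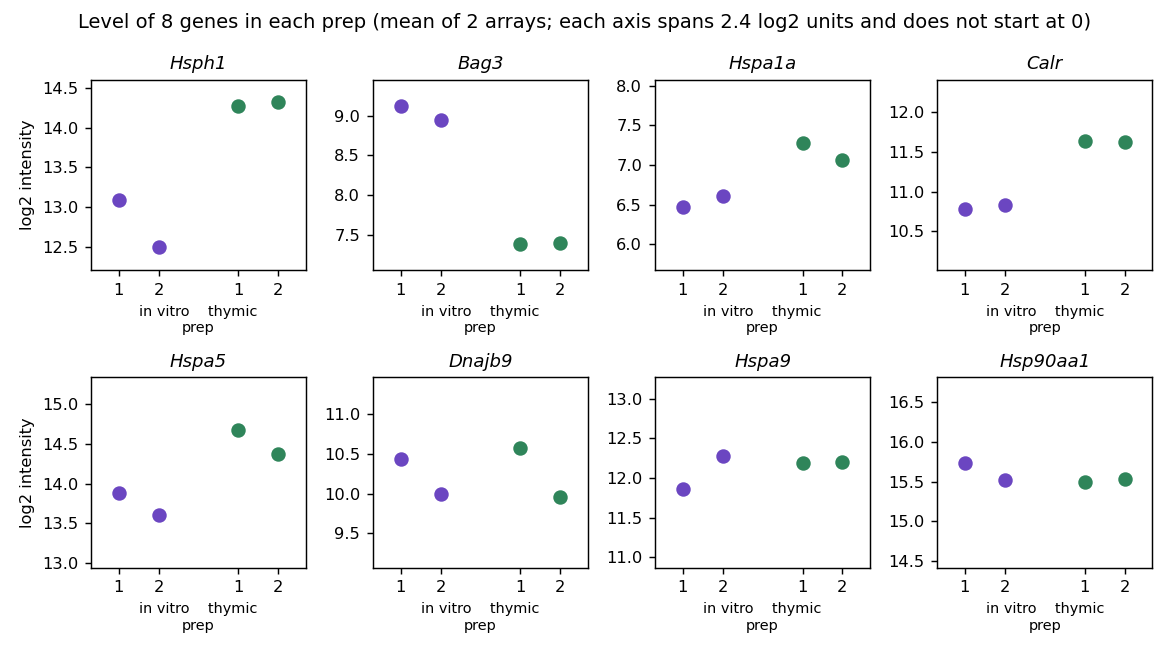
Log2 intensity of 8 chaperone genes in in vitro preps 1 and 2 (purple, left) and thymic preps 1 and 2 (green, right), 1 point per prep as the mean of 2 arrays, with axes of equal span that do not start at 0. The kinds are apart for Hsph1, Bag3, Hspa1a, Calr and Hspa5, while for Dnajb9, Hspa9 and Hsp90aa1 the points of the kinds overlap or lie close.

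The other cytosolic HSP70 genes moved less. Hspa4, a second HSP110-type exchange factor, was called lower (-0.35 ± 0.05, adjusted p = 0.0044), but its 4 probes did not share that size. The 2 cDNA clone probes gave -0.51 and -0.57, the 2 RefSeq probes gave -0.12 and -0.19 and were not called. The Hspa4 call was lost with RefSeq probes alone (-0.15), with the brightest probe (-0.12) and without either thymic prep (-0.35 each), and the gene was called higher with median centring (0.19). Hspa8, the constitutive HSP70, had ratios of 0.07, 0.42, 0.21 and 0.43 on arrays 1 to 4 and was not called (0.28 ± 0.11, adjusted p = 0.080). Of its 2 probes 1 was called higher (0.53, the brighter) and the other lay at 0.03. The gene was called higher without in vitro prep 1 (0.42), without array 1 (0.31), with the brighter probe alone and with median centring (1.44). The array design places both Hspa8 probes on chromosome 5, whereas RefSeq has the gene on chromosome 9, and which copies the probes read was not tested. Hspa14, an HSP70 bound to ribosomes, lay at -0.01 ± 0.08.

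The HSP90 genes of the cytosol were not called with loess, and with median centring both were called higher (1.27 for Hsp90aa1 and 1.12 for Hsp90ab1). Hsp90aa1, the inducible form, had ratios of 0.26 and 0.31 with in vitro prep 1 and -0.05 and -0.07 with prep 2, for a difference of 0.11 ± 0.12 (adjusted p = 0.48), and without in vitro prep 2 it was called higher (0.29). Hsp90ab1, the constitutive form, lay at 0.14 ± 0.06 (adjusted p = 0.099), with 1 of its 2 probes called higher (0.27) and the other at 0.00. Stip1, the linker between HSP70 and HSP90, was called lower (-0.22 ± 0.05, adjusted p = 0.020), a call lost without thymic prep 1 (-0.21) and without thymic prep 2 (-0.24). With no filter on dim probes, which adds a clone probe not above background to its mean, Stip1 lay at -0.03 and was not called, and with median centring it was called higher (0.54).

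Among J proteins, which deliver clients to HSP70, Dnaja1 was called lower (-0.35 ± 0.06, adjusted p = 0.0052), with probes between -0.66 and -0.14. Its call was lost without thymic prep 2 (-0.32). Dnaja2 lay at -0.15 ± 0.07 and was called without in vitro prep 2 (-0.22). Dnajb1, the heat-induced J protein, had a mean of -0.02 ± 0.06 that hides 2 unlike probes, of which 1 lay at 0.28 and was not called and 1 was called lower at -0.31. Dnajb6 was called higher (0.20 ± 0.06, adjusted p = 0.044), near the threshold, and was not called without thymic prep 1 (0.18), thymic prep 2 (0.21), in vitro prep 1 (0.15) or any 1 of the arrays (0.19 to 0.20), nor under 6 other alternatives (0.17 to 0.20).

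Hspb1, the small heat shock protein HSP27, was dim and higher in in vitro-derived cells. Its log2 intensity was 7.03 and 7.33 in the in vitro preps, against 6.84 and 6.62 in the thymic preps. The difference was 0.45 ± 0.09 (adjusted p = 0.013), and the call was lost without thymic prep 2 (0.34), with marked spots kept and with the background model fitted on all spots (0.35 each). Agilent's processed signals and the deposited ratios gave 1.16 for Hspb1 (called higher). A second Hspb1 probe was not above background and is placed by the array design on another chromosome.

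TRiC is a ring of 8 kinds of subunits that folds actin and tubulin, and 7 were listed. With loess 0 of 7 were called higher by limma, against 26.6% of all genes, and Cct3 alone was called lower, against 25.0%. At an unadjusted limma p under 0.05, 5 of 7 were higher, for which no share over all genes was taken. The median was 0.16. Cct4 (0.34), Cct8 (0.25), Tcp1 (0.20), Cct5 (0.16), Cct2 (0.15) and Cct7 (0.12) each had a positive ratio on all 4 arrays, with adjusted p between 0.060 and 0.13. Cct3 stood apart at -0.56 ± 0.07 (adjusted p = 0.0022), with ratios of -0.65, -0.49, -0.61 and -0.49 on arrays 1 to 4 and both probes called lower (-0.41 and -0.71). With median centring the same 6 subunits were called higher, between 0.89 and 1.29, and Cct3 lay at -0.05. In that setting 58.7% of all genes were called higher. Without in vitro prep 1, Cct4 (0.47), Cct8 (0.37) and Tcp1 (0.27) were called higher.

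Hspe1 had the largest decrease of the 3 mitochondrial genes with loess. Its ratios were -0.65, -0.64, -0.67 and -0.70 on arrays 1 to 4, and it was 1.59-fold lower (-0.67 ± 0.05, adjusted p = 5.4e-04). Hspd1, its partner across the shared promoter, was called lower by less (-0.34 ± 0.06, adjusted p = 0.0094), with probes at -0.30 and -0.37, and lost its call without thymic prep 1 (-0.36) and without thymic prep 2 (-0.31). Hspa9, the mitochondrial HSP70 that pulls proteins through the import channel, had ratios of -0.34 and -0.35 with in vitro prep 1 and 0.10 and 0.08 with prep 2. The in vitro preps thus lay on both sides of the thymic level, the gene was not called (-0.13 ± 0.15) and it was called lower without in vitro prep 2 (-0.35). With median centring Hspe1 and Hspd1 turned to 0.31 and 0.54, called higher.

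**Figure D4:**
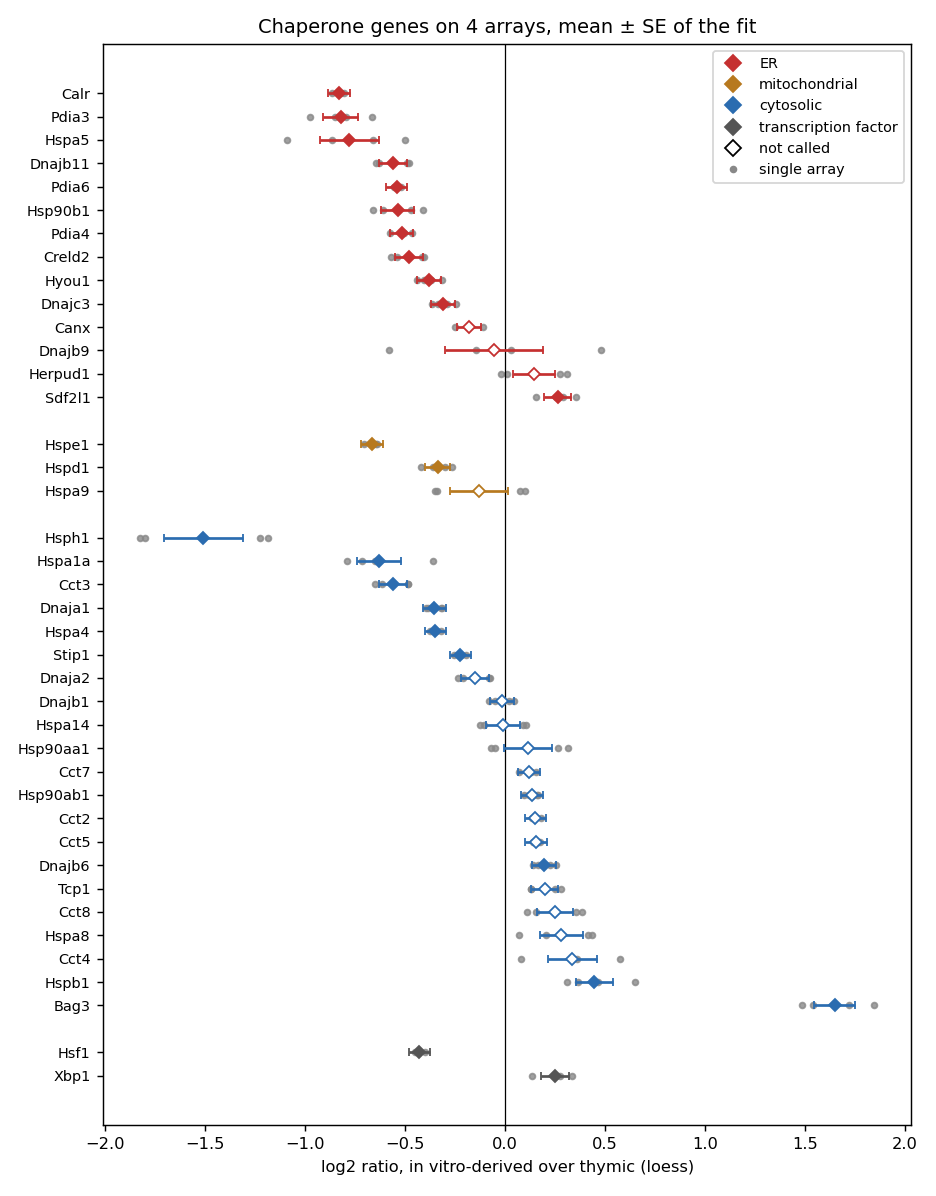
Log2 ratio of in vitro-derived over thymic cells for each of the 40 tested chaperone genes after loess, grouped by compartment, with the mean and SE of the fit as diamonds (open where not called) and the 4 arrays as grey points. Of the 14 ER genes 12 lie left of 0 (with median centring 2), 6 of the 7 TRiC subunits lie just right of it, and Hsph1 (-1.51) and Bag3 (1.65) lie farthest out.

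Calr, which encodes calreticulin, had the largest decrease of the ER chaperones, and the lowest value of them with median centring too (-0.17, not called). Its log2 intensity was 10.78 and 10.82 in the in vitro preps, against 11.64 and 11.63 in the thymic preps. It was 1.78-fold lower (-0.83 ± 0.05, adjusted p = 2.8e-04), with ratios between -0.87 and -0.80 on the 4 arrays. Pdia3, the isomerase that works with calreticulin and calnexin, was 1.77-fold lower (-0.82 ± 0.09, adjusted p = 0.0013). Canx, the membrane-bound lectin chaperone calnexin, lay at -0.18 ± 0.06 with a negative ratio on all 4 arrays and missed the threshold (adjusted p = 0.057). The isomerases Pdia4 (-0.52 ± 0.06) and Pdia6 (-0.54 ± 0.05) were called lower, and all 4 probes of Pdia6 were, between -0.80 and -0.23. Creld2, a secreted and ER-resident protein induced by ER stress, was called lower as well (-0.48 ± 0.07). With median centring Pdia3 (0.03), Pdia4 (0.11) and Pdia6 (0.08) were not called, and Creld2 (0.36) and Canx (0.56) were called higher.

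Hspa5 encodes BiP, the HSP70 of the ER and the gene most used to read the unfolded protein response. Its log2 intensity was 13.88 and 13.61 in the in vitro preps, against 14.67 and 14.37 in the thymic preps, with no overlap. It was 1.72-fold lower (-0.78 ± 0.15, adjusted p = 0.0094), and its ratios on arrays 1 to 4 were -0.87, -1.09, -0.50 and -0.66. Hsp90b1, the ER form of HSP90, was called lower (-0.54 ± 0.08, adjusted p = 0.0045), with probes at -0.51 and -0.57. Hyou1, the HSP110 of the ER that exchanges nucleotide on BiP, was called lower (-0.38 ± 0.06, adjusted p = 0.0047). Its RefSeq probe lay at -0.57 and its clone probe at -0.19, and the call was lost without thymic prep 1 (-0.36) and without thymic prep 2 (-0.40). With median centring Hspa5 (0.18) and Hyou1 (-0.11) were not called and Hsp90b1 (0.39) was called higher.

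The J proteins of the ER, which work with BiP, did not move together. Dnajb11 was called lower (-0.56 ± 0.07, adjusted p = 0.0022), as was Dnajc3 (-0.31 ± 0.06, adjusted p = 0.0099), whose call was lost without thymic prep 1 (-0.29) and without thymic prep 2 (-0.33). Dnajb9, a target of XBP1, varied between preps of the same kind. It had log2 intensities of 10.43 and 9.99 in the in vitro preps, against 10.58 and 9.95 in the thymic preps, so the kinds overlapped and no difference was measured beyond the spread (-0.05 ± 0.25, adjusted p = 0.87). Sdf2l1, which binds ER J proteins, was the 1 ER gene called higher (0.26 ± 0.07, adjusted p = 0.027), a call lost without thymic prep 1 (0.22), thymic prep 2 (0.30) or in vitro prep 2 (0.20). It was lost too with the background model fitted on all spots and with marked spots kept (0.23 each), and with Agilent's processed signals and the deposited ratios (0.24 each). Herpud1, a part of the machinery that sends ER proteins to degradation, lay at 0.15 ± 0.11 and was called higher without in vitro prep 1 (0.29).

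The 7 ER genes with an ER stress element in the promoter lay between -0.83 and -0.18 with a median of -0.54, and 6 were called lower and 0 higher. The 6 ER genes of the promoter table without it lay between -0.82 and 0.26 with a median of -0.28, and 3 were called lower and 1 higher. Among these 6, Dnajb11 (-0.56, called lower) and Herpud1 (0.15, not called) hold the related ER stress element II. These values are with loess; with median centring the medians were 0.36 with the element and 0.42 without it, and 0 genes of either set were called lower, 4 and 3 higher. Genes with the short heat shock element did not share a direction: of the 7 measured cytosolic genes 3 were called higher (Bag3, Hspb1, Dnajb6) and 3 lower (Hsph1, Hspa1a, Dnaja1), or 5 higher and 2 lower with median centring. Their range of -1.51 to 1.65 was also the range of all cytosolic genes, and the 10 without the element lay between -0.56 and 0.25. Of all genes tested, 25.0% were called lower and 26.6% higher with loess, and 12.0% and 58.7% with median centring. The counts by motif are descriptions of 13 and 17 genes and were not tested.

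The 2 transcription factors differed in sign. Hsf1, the activator of the heat shock element, was called lower (-0.43 ± 0.05, adjusted p = 0.0021), with its RefSeq probes at -0.61 and -0.62 and its clone probe, the brightest, at -0.06 and not called. Xbp1 was called higher (0.25 ± 0.07, adjusted p = 0.032) on 1 probe, which does not tell spliced from unspliced transcript. The Xbp1 call was lost without either thymic prep (0.29 and 0.20), without in vitro prep 1 (0.19) and without array 1 or array 4 (0.23 each). It was lost too with marked spots kept, with the background model fitted on all spots, and with both the deposited ratios and Agilent's processed signals (0.20 each). With median centring Hsf1 turned to 0.32 and Xbp1 lay at 0.81, both called higher.

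Probes of 1 gene mostly shared a sign. Of the 22 genes with 2 or more tested probes 18 had all probes on 1 side of 0, and in 0 of them was 1 probe called higher and another lower. Over the whole array 52.2% of 27236 tested probes were called.

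**Figure D5:**
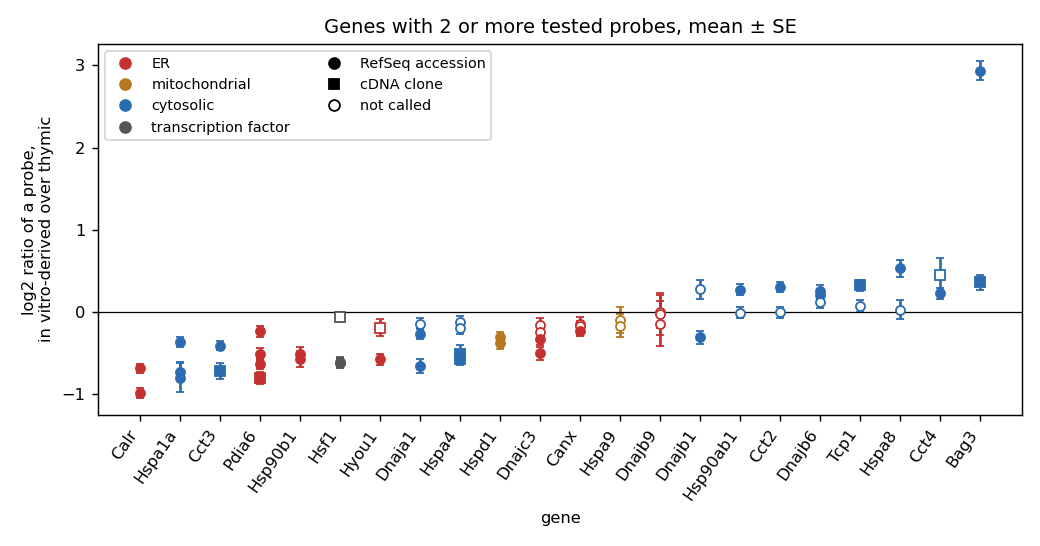
Log2 ratio and SE of each tested probe for the 22 chaperone genes with 2 or more, ordered by gene value, with circles for RefSeq probes, squares for cDNA clones and open symbols for probes not called. Bag3 has the widest spread (2.94 and 0.36), and Dnajb1 has probes on both sides of 0.

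Related genes that are not among the 41 were read for comparison. Of 34 other genes of ER folding, translocation and degradation, 11 were called lower (32.4%, against 25.0% of all genes) and 6 higher (17.6%, against 26.6%), with a median of -0.10 (0.49 with median centring). Those called lower included Edem3 (-0.64), Syvn1 (-0.54) and Ppib (-0.54, or 0.32 with median centring), and Edem1, a lectin of ER degradation, rose by 1.59 ± 0.05 together with Ero1b (0.56) and Ssr3 (0.55). Of 37 other cytosolic chaperones and cochaperones, 13 were called higher (35.1%) and 11 lower (29.7%) with a median of 0.02 (0.68 with median centring), among them Fkbp5 (1.17), Hspa2 (1.09), Dnaja4 (-1.96 ± 0.09), Ahsa1 (-0.69, or 0.40 with median centring) and Dnajb5 (-0.66). Serpinh1, a collagen chaperone placed in that list although it works in the ER, rose by 2.58 ± 0.11. In these wider lists the ER median (-0.10) lay less far below the cytosolic one (0.02) than among the 41 genes (-0.50 and 0.12). With median centring the same held, at 0.49 and 0.68 against 0.33 and 0.94. Of 10 other mitochondrial chaperones, Grpel1 (0.31) and Grpel2 (0.23) were called higher and Dnaja3 (-0.83) and Timm44 (-0.19, or 0.68 with median centring) lower.

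Of 12 genes of stress sensing and the integrated stress response 3 were called higher, Eif2ak3 (PERK, 1.08 ± 0.10), Ern1 (IRE1, 0.50 ± 0.07) and Ddit3 (CHOP, 0.49 ± 0.15), and 2 lower, Eif2ak2 (-1.15 ± 0.05) and Atf6b (-0.37 ± 0.06, or 0.21 with median centring), with a median of 0.14 (0.66 with median centring). These shares, 25% and 16.7%, lie near or below those of all genes. Immediate early genes, which respond to handling as well as to signals, were called higher in 6 of 12 (50%, against 26.6% of all genes). They were called lower in 1 (8.33%, against 25.0%) and not called in 5. Nr4a1 lay at 1.95, Fosb at 1.74, Jun at 1.44 and Egr2 at -0.59 (0.12 with median centring). The median over the 12 was 0.33 (0.85 with median centring), while their median difference of thymic prep 1 over thymic prep 2 was 0.47. Jun had log2 intensities of 11.03 and 9.66 in the in vitro preps, against 9.17 and 8.64 in the thymic preps. In 8 chaperone genes the in vitro preps lay over 0.25 apart. The in vitro prep with more Jun had more Hsph1, Dnajb9, Hsp90aa1 and Bag3 and less Hspa9, Herpud1, Hspa8 and Cct4. Jun had the widest gap between in vitro preps of the 12 immediate early genes (1.22, prep 1 over prep 2), against a median of 0.24. Fos and Zfp36 (-0.02 each) and Ier2 (-0.22) lay lower in in vitro prep 1, and the rest lay higher. Thymic preps lay over 0.25 apart in 2 chaperone genes, Dnajb9 (0.62) and Hspa5 (0.40), both higher in thymic prep 1. Any gene lies higher in 1 of 2 preps, and the part of the immediate early genes in the chaperone values was not tested.

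Markers of cycling and of stroma were higher in in vitro-derived cells, and those of other blood cells went in both directions. All 10 proliferation genes were called higher, with a median of 1.89 and Ccnb1 (2.76), Ccna2 (2.48) and Rrm2 (2.36) at the top. Of all genes tested, 26.6% were called higher and 25.0% lower. Of 15 stromal markers 12 were tested and 11 called higher, with Pdgfrb at 4.69, Col1a2 at 2.94 and Cxcl12 at 2.61. The summed linear intensity of the stromal markers was 8823 and 11063 in the in vitro preps, against 1538 and 1459 in the thymic preps. Fstl1, Fbn1, Col6a1 and Postn were not well above background in thymic cells. These 4 passed the filter through the in vitro-derived channel only, so their calls add no support to the count of 11. Of the 7 markers of gamma delta and NK cells 5 were tested, Blk (1.38) and Sox13 (1.15) higher and Klrd1 (-2.73) and Il2rb (-2.39) lower, and their sum was 5382 and 8202 in the in vitro preps, against 33496 and 34727 in the thymic preps. Of 8 myeloid genes tested 4 were called higher, among them Fcer1g (1.02), Cd68 (0.49) and Mpo (0.47), and 3 lower, S100a9 (-2.16), Lyz2 (-1.53) and Csf1r (-0.20), with sums of 1583 and 1934 in the in vitro preps, against 1838 and 1731 in the thymic preps. Of 6 B lineage genes tested Blnk (1.24) was higher and Cd79b (-0.43, or 0.23 with median centring) lower, with sums of 3303 and 2942 in the in vitro preps, against 3606 and 3602 in the thymic preps. Of the 11 T cell genes Lck (0.49) and Cd4 were called higher and 7 lower, with a median of -0.59 and Cd5 (-1.39), Cd8a and Cd3g (-0.70) lowest. With median centring that median turned to 0.38, with Cd8a at 0.29, Cd3g at 0.44 and Cd5 at -0.33. The part of other cells and of cycling in the chaperone values was not tested.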

How the data were processed

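RNA of 2 in vitro-derived and 2 thymic preps was hybridised to 4 two-colour arrays, all on 1 slide and in 1 scan. The authors deposited scanner files with spot intensity values (per the file headers, from version 9.5.1.1 of Agilent Feature Extraction) and a table of log10 ratios of Cy5 over Cy3 that matched the scanner's own (r of at least 0.9999 on each array, median 0). For the probe positions, a genome build was not given in the sources used here. Here limma 3.58.1 in R 4.3.3 was used: spots marked by the scanner software (133 to 187 per array) were left out, background was corrected with normexp (offset 50) and each array was normalized by loess. Probes were tested where 1 channel or both exceeded background clearly, by the scanner's own mark, on all 4 arrays (27236 of 41174), names were updated through RefSeq accessions (22951 probes matched, 5141 names changed) and the mean of a gene's tested probes stood for it. The 4 log2 ratios were turned into 4 prep values, 2 per kind, and fitted with lmFit and eBayes, which left 2 residual degrees of freedom beside a prior of 3.04. A gene was called when its p, adjusted by Benjamini-Hochberg over all 18624 genes, was under 0.05, and the script was tested on simulated data. All 41 genes are named, and from each of 11 other lists up to 3 called genes in each direction. The genes and lists were chosen with earlier results of these data known. The 19 alternatives changed background correction, normalization, filters, probes or samples, and 1 of them, RefSeq probes only, was added after seeing the data.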

Additional observations from a re-analysis of the deposited data

How the results depend on the processing

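No paired analysis was possible because each in vitro prep was hybridised to both thymic preps, so that prep numbers mark no pairs. Of the 24 calls, Bag3 (higher) and Hsph1 (lower) held under all 19 alternatives. With median centring set aside, 11 of the 19 lower calls and 1 of the 5 higher calls held. These alternatives are not 19 separate checks. Scaling between arrays and the filter on both channels left all chaperone ratios as they were, and the deposited ratios nearly repeat Agilent's processed signals. A left-out array was filled in from the others. Leaving out array 1 or array 4 therefore gave equal differences, as did array 2 or array 3. The depth of an array is not a count, and dim genes such as Hspa1a and Hspb1 lie close to background. With median centring, calls over all genes were 10940 higher and 2232 lower, cytosolic calls 18 higher and 2 lower (median 0.94), TRiC calls 6 higher and 0 lower (median 1.08), mitochondrial calls 3 higher and 0 lower (median 0.54) and ER calls 7 higher and 0 lower (median 0.33). It turned the sign of 20 genes, to 0.97 for Hspa14, 0.94 for Dnajb1, 0.62 for Hspa9, 0.60 for Dnaja2, 0.56 for Canx, 0.54 for Hspd1, 0.54 for Stip1, 0.52 for Dnajb9 (not called in either setting), 0.46 for Dnaja1, 0.39 for Hsp90b1, 0.39 for Dnajc3, 0.36 for Creld2, 0.32 for Hsf1, 0.31 for Dnajb11, 0.31 for Hspe1, 0.19 for Hspa4, 0.18 for Hspa5, 0.11 for Pdia4, 0.077 for Pdia6 and 0.029 for Pdia3. The cause of this shift with brightness was not tested. With the background model fitted on all spots, 3157 genes and 1 cytosolic gene were called higher, and with marked spots kept 3166 and 1, with 0 ER genes called higher in both. Agilent's processed signals and the deposited log ratios gave 0 ER genes called higher and an ER median of -0.56. The brightest probe per gene gave 7 cytosolic and 2 TRiC genes called higher and an ER median of -0.54, RefSeq probes alone 1 TRiC gene, and an offset of 16 a cytosolic median of 0.15 and a TRiC median of 0.19. Leaving out 1 array or 1 prep gave 2789 (without thymic prep 2) to 4938 genes called higher and 2711 (without thymic prep 2) to 4616 lower. It gave 1 to 6 cytosolic genes higher and 3 to 7 lower (median 0.11 to 0.14), 0 mitochondrial genes higher and 1 to 3 lower (median -0.39 to -0.28), 0 to 2 ER genes higher and 8 to 10 lower (median -0.51 to -0.45), and 0 to 3 TRiC genes higher and 1 lower (median 0.13 to 0.17). Without 1 thymic prep, the spread rests on the in vitro preps alone.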
